A study of Mus musculus with 3 samples.

Results

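The genes described here are 35 genes of cholesterol and fatty acid synthesis. The set holds 16 sterol pathway enzymes, 5 genes called SREBP regulators here and 14 genes of fatty acid synthesis, desaturation and elongation. The 5 encode the SREBP transcription factors or proteins that control them. Members were chosen by name, as gene probes whose name on the array equals a listed symbol, out of 27670 gene names on the arrays. All 35 were found, with 70 probes between them, and the brightest probe stood for its gene. Mouse embryonic stem (ES) cells, pluripotent cells of the early embryo, were compared with mouse embryonic fibroblasts (MEF), mesenchymal cells grown from fetuses. The ES cells were untreated and grew with fetal serum and leukemia inhibitory factor, which maintains self-renewal, whereas the MEF grew in a plainer medium with fetal serum. Strain, cell line, genotype, fetal age and passage are not given in the sources used here. RNA of 3 ES cell replicates (Cy3) was hybridised with MEF RNA (Cy5) on 3 two-colour whole-genome arrays, without a dye swap, so any dye bias of a probe stays in its ratio. The design text once calls the Cy5 sample "mix2", while the labels of every array and the stated comparison name MEF, which was followed here.

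Cholesterol is built from acetyl-CoA through mevalonate and isoprenoid units to squalene, which is then closed into a ring and trimmed to cholesterol. When sterols run low, the escort protein SCAP carries SREBP from the endoplasmic reticulum to the Golgi, where it is cut and released to switch on sterol and fatty acid genes, and INSIG proteins hold that complex back when sterols are plentiful. Fatty acid synthesis starts from the same acetyl-CoA and makes palmitate, which elongases lengthen and desaturases provide with double bonds.

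All ratios are given as log2 of ES cells over MEF, so negative ratios mean less signal in ES cells. Calls required a difference of at least 2-fold and an adjusted p under 0.05 (limma, Benjamini-Hochberg over 19494 genes). Whether the replicates were grown apart is not stated, so the p-values reflect array-to-array spread alone, which may be technical, and MEF RNA is 1 control whose own spread is left out. In whole cultures, fewer cells of a type and less RNA per cell cannot be told apart. The labelled cell types matched their markers in direction. All 8 ES cell markers, Zfp42 and Sox2 among them, were called higher in ES cells. Their summed intensity, with Dppa5a the brightest, was 922000 to 934000 in ES cells and 48000 to 50200 in MEF. Each of them was still well above background in MEF on all 3 arrays, and the source of that MEF signal was not tested. All 9 fibroblast markers were called lower in ES cells. All 8 macrophage markers were called lower as well, and their summed intensity was 8780 to 9100 in ES cells and 412000 to 442000 in MEF. That sum is dominated by Lyz2, the brightest of them, with a log2 intensity of 18.30 to 18.42 in MEF.

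Most sterol enzymes differed by less than 2-fold between the cell types, while fatty acid desaturation and elongation differed widely. Of the 35 genes, 4 were called higher in ES cells, against 20.4% of all genes tested, and 9 were called lower, against 22.5% (either way, 13 genes against 42.8%). Of the 16 sterol enzymes, 13 differed by less than 2-fold, and the median log2 ratio was -0.032, next to -0.0505 over all genes tested. The 14 fatty acid genes had 3 called higher and 6 lower, with a median of -0.31 that hides a range from -4.11 to 2.10. Both medians depend on the scaling: with processed signals they were 0.075 for sterol enzymes and -0.18 for fatty acid genes, next to 0.0354 over all genes. With median centring they were 0.21 and -0.044, next to 0.11 over all genes. All 35 cleared the background in both channels on every array, and none was saturated. Their SD between arrays ran from 0.0022 to 0.057, and 34 of 35 had the same sign on all 3 arrays, the exception being the brightest probe of Mvk. So small was this spread that 32 of the 35 genes had an adjusted p under 0.05 in limma, as did 95.4% of all genes, and the 2-fold minimum therefore sets the calls.

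**Figure D1:**
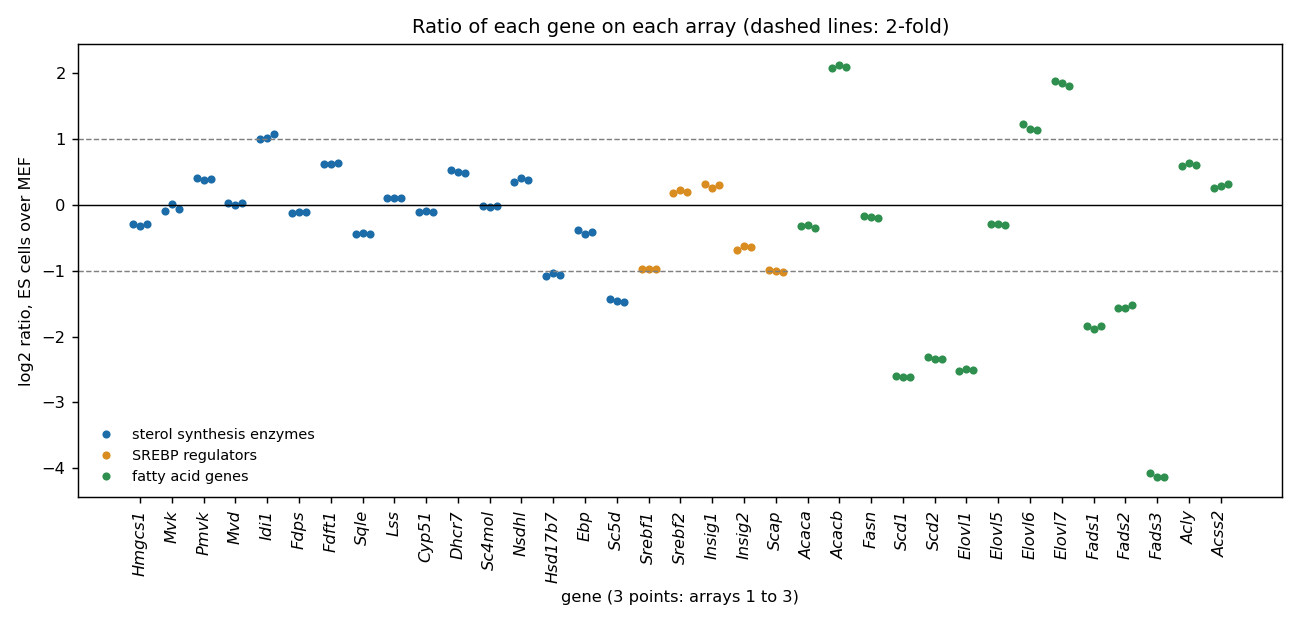
Log2 ratio of ES cells over MEF (vertical axis) for each of the 35 genes (horizontal axis, in pathway order within 3 colour-coded groups), with a point for each of the 3 arrays. The sterol enzymes lie between -1.45 and 1.03, whereas the fatty acid genes spread from -4.11 for Fads3 to 2.10 for Acacb, and the 3 points of a gene nearly coincide.

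The enzymes that lead from acetyl-CoA units to farnesyl groups had ratios close to 0 apart from Idi1. Hmgcs1, which makes the precursor of mevalonate, stood at -0.29, -0.31 and -0.29 on the 3 arrays. Mvk, the mevalonate kinase, gave -0.086, 0.020 and -0.068, a mean of -0.044 ± 0.057 (SD, n = 3 arrays) that did not pass the test (adjusted p = 0.171, limma). That holds for its brightest probe, while a second Mvk probe gave -0.38, -0.31 and -0.31. Pmvk, the next kinase of the chain, averaged 0.39 ± 0.018, and Mvd, the decarboxylase that yields isopentenyl diphosphate, 0.022 ± 0.019 (adjusted p = 0.198, limma). Idi1, the isomerase that turns isopentenyl into dimethylallyl diphosphate, was the sterol enzyme called higher. Its log2 intensity was 14.88, 14.83 and 14.87 in ES cells and 13.89, 13.81 and 13.80 in MEF, so every ES cell value lay above every MEF value. The Idi1 ratio was 0.995, 1.02 and 1.08 (mean 1.03 ± 0.042, 2.04-fold, adjusted p = 3.22e-06, limma), and a second Idi1 probe gave 1.12. Against a minimum of 2-fold tested within limma itself (treat), Idi1 was no longer called. Fdps, which joins the units into farnesyl diphosphate, averaged -0.11 ± 0.0082 by its brightest probe.

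After farnesyl diphosphate the pathway is committed to sterols. Fdft1, the squalene synthase, averaged 0.63 ± 0.0053 and Sqle, the squalene epoxidase that is a slow step of the pathway, -0.44 ± 0.0087. Lss, which closes the sterol ring, stood at 0.11 on each of the 3 arrays, and Cyp51, the demethylase that acts on lanosterol, averaged -0.10 ± 0.014. Other probes gave 0.53 and 0.12 for Lss and -0.53 and -0.63 for Cyp51. By their brightest probes, Fdft1, Sqle, Lss and Cyp51 all differed by less than 2-fold. Sc4mol (now Msmo1), a methyl oxidase, stood at -0.019 ± 0.0050 (adjusted p = 0.177, limma), and its partner Nsdhl at 0.38 ± 0.030. Ebp, an isomerase of the late pathway, averaged -0.41 ± 0.031, and Dhcr7, the last enzyme of a branch to cholesterol, 0.51 ± 0.022.

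Hsd17b7 and Sc5d were the sterol enzymes called lower in ES cells. Hsd17b7, the ketoreductase that completes removal of the methyl groups, had a log2 intensity of 12.19, 12.24 and 12.20 in ES cells and 13.26, 13.27 and 13.27 in MEF. Its ratio was -1.07, -1.03 and -1.07 (mean -1.06 ± 0.021, adjusted p = 1.04e-06, limma), and another probe gave -0.97. Sc5d, the desaturase just before Dhcr7, had a log2 intensity of 12.09, 12.04 and 12.10 in ES cells and 13.52, 13.49 and 13.58 in MEF. For Sc5d the ratio was -1.43, -1.45 and -1.48 (mean -1.45 ± 0.025, 2.74-fold, adjusted p = 5.47e-07, limma), and its other probe gave -0.69. For neither gene did the channels overlap, but Hsd17b7 lay at the edge of the 2-fold minimum. It fell inside that minimum under 3 alternatives: processed signals of the scanner software (-0.93), the authors' value table, and median centring (-0.78). The first 2 of these rest on nearly the same values.

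Promoter stretches are printed for 7 genes to show a feature that the matched sterol enzymes shared and the choice of genes did not use. RefSeq promoters (build GRCm38.p6, 250 bases before to 50 after each start) matched 29 of the 35 genes. Fads1, Fdft1, Fdps, Scd1, Scd2 and Sqle had no promoter there and were not searched. The NF-Y box, letters CCAAT on either strand, is the site of a factor known to work beside SREBP. It was present in at least 1 promoter of 13 of 13 sterol enzymes matched, of 7 of 11 fatty acid genes (63.6%) and of 4 of 5 regulators, against 42.6% of the 12305 matched genes tested on the arrays. Counted by promoter, the share was 81.2% of 16 for sterol enzymes and 37.5% of 15570 for genes tested. The GC box GGGCGG was present for 92.3% of sterol enzymes, against 63.3% of genes tested, and the E-box CACGTG for 23.1%, against 11.1%. The core of the sterol regulatory element, letters TCACNCCAC on either strand, was found for Hmgcs1 alone among the 29 genes and for 1.42% of genes tested. Matches of different motifs may share letters, and each match is a description of letters and no evidence of binding. The 200 bases before the start follow, with matches of the NF-Y box (CCAAT, or ATTGG on the other strand) in capitals and, in Hmgcs1, the sterol element core. Hmgcs1 holds that core, Mvk has the most NF-Y boxes of those shown (5), Idi1 was called higher, Hsd17b7 and Sc5d were called lower, and Fads3 and Elovl6 are fatty acid genes called lower and higher, Elovl6 without a box.
Hmgcs1 (chr13:119690151-119690350, plus strand): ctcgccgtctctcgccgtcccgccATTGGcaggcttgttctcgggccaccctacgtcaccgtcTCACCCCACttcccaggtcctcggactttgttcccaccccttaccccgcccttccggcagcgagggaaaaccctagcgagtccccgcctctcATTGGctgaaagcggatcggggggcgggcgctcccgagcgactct
Mvk (chr5:114444069-114444268, plus strand): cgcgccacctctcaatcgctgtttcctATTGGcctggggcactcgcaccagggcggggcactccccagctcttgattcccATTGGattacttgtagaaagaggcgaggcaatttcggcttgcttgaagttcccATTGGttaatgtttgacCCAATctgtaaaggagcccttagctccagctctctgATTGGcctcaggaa
Idi1 (chr13:8885406-8885605, plus strand): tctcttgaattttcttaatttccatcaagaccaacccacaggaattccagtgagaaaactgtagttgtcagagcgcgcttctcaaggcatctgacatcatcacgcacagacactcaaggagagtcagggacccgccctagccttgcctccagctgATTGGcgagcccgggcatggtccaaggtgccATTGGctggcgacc
Hsd17b7 (chr1:169969206-169969405, minus strand): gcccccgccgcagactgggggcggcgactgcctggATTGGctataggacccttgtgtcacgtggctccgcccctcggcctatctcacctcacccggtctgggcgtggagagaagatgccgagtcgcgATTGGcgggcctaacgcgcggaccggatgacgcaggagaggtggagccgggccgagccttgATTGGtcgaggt
Sc5d (chr9:42264301-42264500, minus strand): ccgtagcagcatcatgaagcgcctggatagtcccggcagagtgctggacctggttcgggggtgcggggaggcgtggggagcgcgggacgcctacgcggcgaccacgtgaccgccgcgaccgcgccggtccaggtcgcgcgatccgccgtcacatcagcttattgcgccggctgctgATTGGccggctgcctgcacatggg
Fads3 (chr19:10041348-10041547, plus strand): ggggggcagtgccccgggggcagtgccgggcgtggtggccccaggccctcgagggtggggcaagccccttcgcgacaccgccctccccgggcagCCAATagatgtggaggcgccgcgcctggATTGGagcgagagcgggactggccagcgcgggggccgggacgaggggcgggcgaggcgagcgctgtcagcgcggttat
Elovl6 (chr3:129532186-129532385, plus strand): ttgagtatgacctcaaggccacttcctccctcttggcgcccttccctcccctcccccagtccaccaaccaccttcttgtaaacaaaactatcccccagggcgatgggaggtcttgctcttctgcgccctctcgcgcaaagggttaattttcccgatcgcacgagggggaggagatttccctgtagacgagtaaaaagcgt
The NF-Y box thus stood before sterol enzymes called higher, called lower and not called.

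The SREBP regulators had Scap at the edge of the minimum and no other call. Srebf1, which encodes the SREBP most tied to fatty acid genes, stood at -0.97 on each array, 1.96-fold lower and just short of the 2-fold minimum (adjusted p = 7.13e-07, limma). Scap stood at -0.993, -0.997 and -1.01 (SD 0.011), and its mean lay just past 2-fold (adjusted p = 7.87e-07, limma). Without replicate 3 the Scap mean was -0.995 and the call was lost, so Srebf1 and Scap are better read together, as values close to 2-fold on either side of the minimum. Insig1 and Insig2, the retention proteins, averaged 0.30 ± 0.031 and -0.65 ± 0.032, a difference in sign that held on all 3 arrays.

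Srebf2, which encodes the SREBP most tied to sterol genes, had the widest disagreement between probes. Its brightest probe gave 0.20 ± 0.022, and its other tested probes 1.52, 0.18 and -0.50. The probe at 1.52 lay on mouse build mm7 chromosome 15 from 82257952 to 82258011, and the probe at -0.50 from 82288730 to 82288789. Which transcripts or exons these probes read was not determined, since no mm7 annotation was at hand. For Fdft1 a dimmer probe gave -1.34 where the brightest gave 0.63. That dimmer Fdft1 probe was not well above background in ES cells on any array, so the size of its ratio is uncertain. For Fdps a dimmer probe gave 1.59 against -0.11. Hmgcs1 had probes at -0.30, 0.37 and 0.69. Tested probes of 5 of the 21 genes with more than 1 differed in sign, the fifth being Acaca, with values from -0.33 to 0.29, but no gene had called probes of opposite sign. Averaging all probes turned the sign of Hmgcs1 to 0.25, of Fdps to 0.74 and of Fdft1, its dim probe included, to -0.35. For these genes the direction depends on the probe. The Hmgcs1 probes lie on unplaced sequence of mm7 and the Idi1 probes on its chromosome 2, while RefSeq places both genes on chromosome 13.

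**Figure D2:**
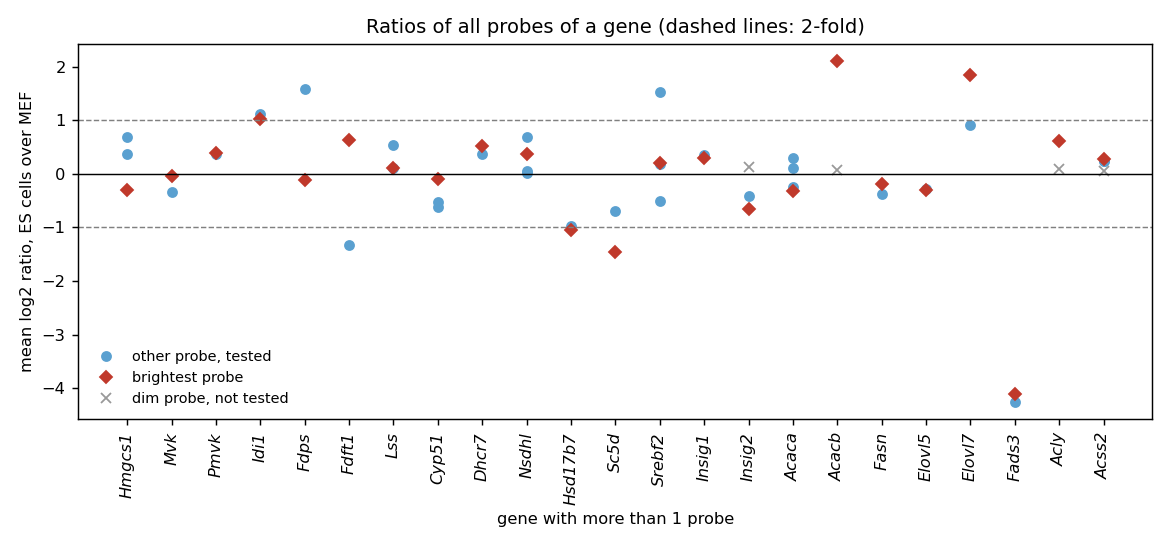
Mean log2 ratio of ES cells over MEF (vertical axis) of every probe of the genes with more than 1 probe (horizontal axis), with the brightest probe as a diamond, other tested probes as circles and probes too dim to test as crosses. Probes of Srebf2, Fdft1 and Fdps lie 2.02, 1.97 and 1.70 apart, while those of Fads3, Idi1 and Elovl5 nearly coincide. The lower Fdft1 probe was not well above background in ES cells.

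The core of fatty acid synthesis differed little. Fasn, the synthase that makes palmitate, stood at -0.16, -0.18 and -0.20, a mean of -0.18 ± 0.019. Acly, which supplies acetyl-CoA from citrate, averaged 0.62 ± 0.023, and Acss2, which supplies it from acetate, 0.28 ± 0.031. The carboxylases that make malonyl-CoA differed between themselves. Acaca, the cytosolic carboxylase, averaged -0.33 ± 0.023. Acacb, the mitochondrial form whose malonyl-CoA restrains the import of fatty acids for oxidation, had the highest ratio of the 35 genes. Its log2 intensity was 11.50, 11.47 and 11.53 in ES cells and 9.42, 9.34 and 9.44 in MEF, without overlap. The Acacb ratio was 2.08, 2.13 and 2.09 (mean 2.10 ± 0.027, 4.29-fold, adjusted p = 2.84e-07, limma). A second Acacb probe did not pass the filter on dim probes, so this value rests on 1 probe, on mm7 chromosome 5 from 113472402 to 113472462.

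The fatty acid desaturases of the set were lower in ES cells. All 5, Scd1, Scd2, Fads1, Fads2 and Fads3, were called lower, and each was called lower under all alternative settings. Scd1, Scd2, Fads1 and Fads2 have 1 probe each, so averaging or choosing probes could not change them. Scd1 and Scd2 place the double bond that turns stearate into oleate, Scd1 chiefly in liver and fat and Scd2 in brain and the young animal. Scd1 had a log2 intensity of 11.30, 11.29 and 11.32 in ES cells and 13.90, 13.90 and 13.93 in MEF, a ratio of -2.61 ± 0.0053 (6.09-fold lower, adjusted p = 1.65e-07, limma). Scd2 had 14.55, 14.54 and 14.61 in ES cells and 16.87, 16.88 and 16.96 in MEF, a ratio of -2.33 ± 0.016 (5.04-fold lower, adjusted p = 1.87e-07, limma). In both genes the ES cell values lay far below the MEF values, without overlap.

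Fads1 and Fads2 introduce the double bonds of polyunsaturated fatty acids, and the related Fads3 has been linked to sphingoid bases. Fads3 had the lowest ratio of the 35 genes. Its log2 intensity was 11.24, 11.25 and 11.22 in ES cells and 15.32, 15.38 and 15.34 in MEF. The Fads3 ratio was -4.08, -4.13 and -4.13 (mean -4.11 ± 0.029, 17.3-fold lower, adjusted p = 1.62e-07, limma), and its other probe gave -4.26. Only 1.04% of tested genes had a ratio at or below that of Fads3. Fads1 stood at -1.84, -1.88 and -1.84 (3.62-fold lower) and Fads2 at -1.57, -1.57 and -1.52 (2.93-fold lower), with adjusted p-values of 2.97e-07 and 5.79e-07 (limma). On mm7 chromosome 19 the Fads3 probe lay from 9738276 to 9738335, the Fads2 probe from 9744385 to 9744815 and the Fads1 probe from 9876165 to 9876224.

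These 5 fatty acid desaturase genes are on chromosome 19, in a Fads and an Scd cluster, and their neighbours were looked up after these values were seen. Among 526 tested genes of chromosome 19, 25.9% were called lower, near the 22.5% of all genes. In RefSeq order the Fads genes are flanked by Rab3il1, which stood at -2.68 ± 0.054, and by Fen1, a flap endonuclease of DNA replication, at 1.37 ± 0.023. Among the genes looked up, ratios were thus low from Rab3il1 through Fads1 and not at Fen1. Genes beyond these flanks were not looked up. In the Scd cluster, Scd3, a further stearoyl-CoA desaturase gene outside the set, lay next to Scd2 and stood at 0.025 ± 0.028 (adjusted p = 0.205, limma). Scd3 was dim in both channels, with log2 intensities of 7.66 to 7.93 in ES cells and 7.66 to 7.87 in MEF. Its ratio near 0 therefore says little about a difference. Scd4 did not pass the filter on dim probes. Pkd2l1, on the far side of Scd3, stood at 1.17 ± 0.28.

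**Figure D3:**
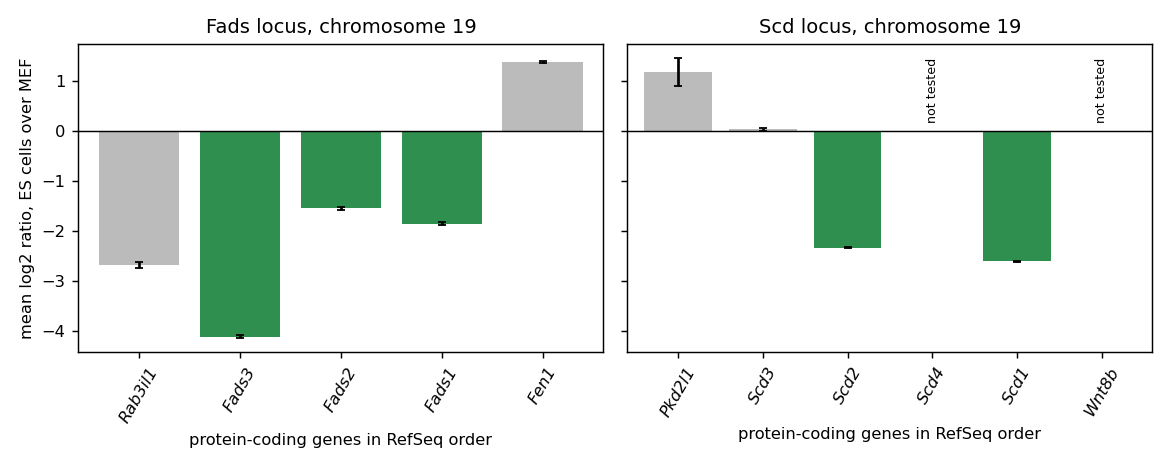
Mean log2 ratio of ES cells over MEF (vertical axis, bars from 0, error bars SD of 3 arrays) for protein-coding genes in RefSeq order (horizontal axis) at the Fads locus (left) and the Scd locus (right), with the genes described here in green and flanking genes in grey. Fads3, Fads2 and Fads1 lie at -4.11, -1.55 and -1.85 beside Fen1 at 1.37. Scd3, dim in both channels, lies at 0.025 beside Scd2 at -2.33.

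Elongases went both ways. Elovl1, which lengthens saturated and monounsaturated chains, was called lower, with a log2 intensity of 12.84, 12.87 and 12.84 in ES cells and 15.36, 15.35 and 15.35 in MEF. The Elovl1 ratio was -2.51 ± 0.018 (5.69-fold lower, adjusted p = 1.81e-07, limma). Elovl5, the elongase of polyunsaturated chains, stood at -0.30 ± 0.013, with 2 probes within 0.018 of each other. Elovl6, which takes palmitate to stearate, was called higher, with 13.98, 13.97 and 13.99 in ES cells and 12.74, 12.82 and 12.85 in MEF. Its ratio was 1.24, 1.15 and 1.14 (mean 1.18 ± 0.054, 2.26-fold, adjusted p = 3.83e-06, limma). Elovl1 and Elovl6 each rest on 1 probe. Elovl7, which acts on saturated long chains, was called higher at 1.88, 1.86 and 1.80 (mean 1.85 ± 0.043, 3.6-fold, adjusted p = 6.54e-07, limma), and its dimmer probe gave 0.91. Among these 4 elongases the order from highest to lowest ratio, Elovl7, Elovl6, Elovl5 and Elovl1, was the same on each array. Outside the set, Elovl4 stood at -1.69 ± 0.035 and Elovl2 is given with its list.

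**Figure D4:**
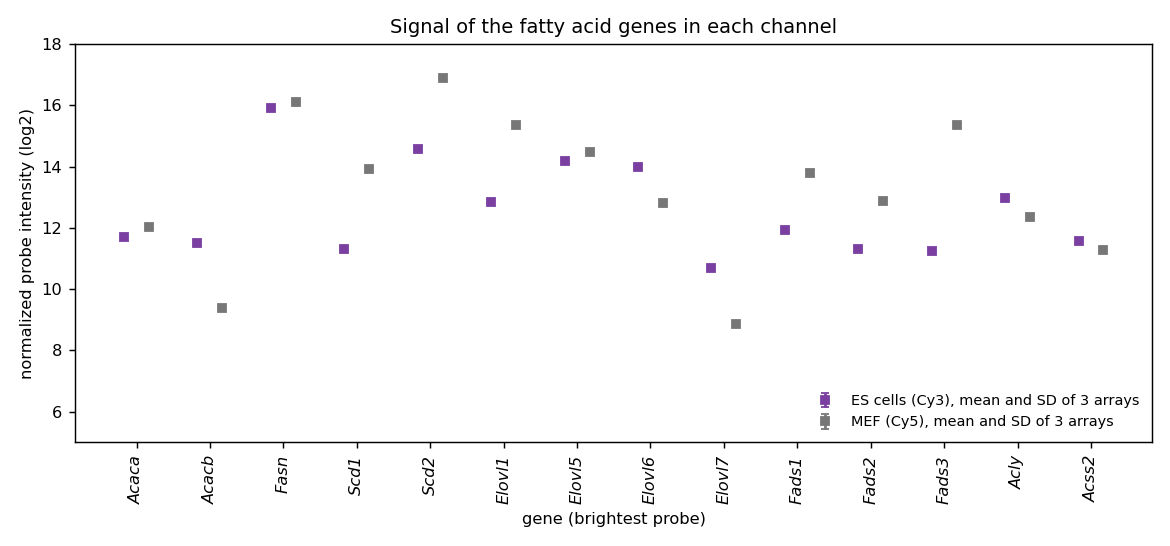
Normalized log2 intensity (vertical axis) of the brightest probe of each of the 14 fatty acid genes (horizontal axis) in ES cells (purple, left of each pair) and MEF (grey), as squares for means and bars, mostly hidden by the squares, for the SD of 3 arrays. The ES cell values lie below the MEF values for Scd1, Scd2, Elovl1, Fads1, Fads2 and Fads3 and above them for Acacb, Elovl6 and Elovl7, and intensities are comparable between channels of a gene but not between genes.

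Markers of other cell types differed as well. The macrophage markers were lower in ES cells, as given above. Of 9 adipocyte markers 3 were called lower in ES cells, among them Pparg, the master regulator of fat cells, at -2.56 ± 0.028 and Cebpa, its partner, at -2.82 ± 0.11, with -1.84 for Cebpa over all its probes. The other tested markers, Cidec and Retn, stood above 0, at 0.51 ± 0.063 and 0.43 ± 0.073, under 2-fold. The summed intensity over the 5 tested markers, dominated by Fabp4, was 2690 to 2790 in ES cells and 13700 to 14100 in MEF. Adipoq, Cfd, Lep and Plin1, which define mature adipocytes, did not pass the filter on dim probes. The part of macrophages or fat-prone cells in the ratios of the desaturases and Elovl1 was not tested.

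Other lipid genes give the setting, to be read beside the 20.4% of all genes tested called higher and the 22.5% called lower. Among 13 tested isoprenoid and sterol enzymes outside the 16, 2 were called higher and 4 lower (median 0.0041). Lbr, a sterol reductase that also anchors chromatin at the nuclear envelope, stood at 2.11 ± 0.028 and Pdss1, which builds the tail of ubiquinone, at 1.97 ± 0.029. Ch25h, which makes an oxysterol that suppresses SREBP, stood at -4.09 ± 0.044 and the dolichol kinase gene Dolk at -1.57 ± 0.0067.

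Genes of sterol uptake, export and sensing had 1 of 22 called higher and 8 lower, with a median of -0.62. Vldlr, a lipoprotein receptor, stood at -3.20 ± 0.015 and Abca1, the main cholesterol exporter, at -3.17 ± 0.026. Stard4, a sterol carrier, was the gene called higher at 1.38 ± 0.012, but averaging its probes gave 0.87. Among those called lower, Rnf139 stood at -1.09, but averaging its probes gave 0.0565. Other fatty acid synthesis and activation genes split, with 4 of 21 called higher and 5 lower (median 0.025). Elovl2, an elongase of polyunsaturated chains, stood at 3.19 ± 0.21 and Acss1, the mitochondrial acetate enzyme, at 2.61 ± 0.038. Me1, which supplies NADPH for fatty acid synthesis, stood at -2.99 ± 0.038 and the acyl-CoA synthetase gene Acsl5 at -1.77 ± 0.012.

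Fatty acid oxidation had 8 of 24 genes called lower (33.3%, against 22.5% of all genes) and 0 higher (against 20.4%; limma, 2-fold). Its median was -0.75, although 4 genes had a ratio above 0 at an unadjusted p under 0.05 (limma). Acadvl, which starts the oxidation of long chains, stood at -2.09 ± 0.021. Ppargc1a, a coactivator of mitochondrial genes, was not well above background in ES cells and was at least 3.86-fold lower there (adjusted p = 2.22e-07, limma), while averaging its probes gave a log2 ratio of -1.43. That bound sets the MEF mean against the higher of its ES cell signal and the lowest signal called well above background on each array. Lipid droplet and triglyceride genes had 2 of 19 called higher and 6 lower (median -0.53). Among those called lower, Dgat2 stood at -1.07, but averaging its probes gave -0.573. Fabp5, at -1.51 ± 0.32, was well above background in ES cells on 1 array only. Fabp3, a fatty acid binding protein, stood at 2.08 ± 0.031 and the phosphatidate phosphatase gene Lpin3 at 1.40 ± 0.032, whereas the monoglyceride lipase gene Mgll stood at -3.10 ± 0.032 and Fabp4 at -2.50 ± 0.013.

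**Figure D5:**
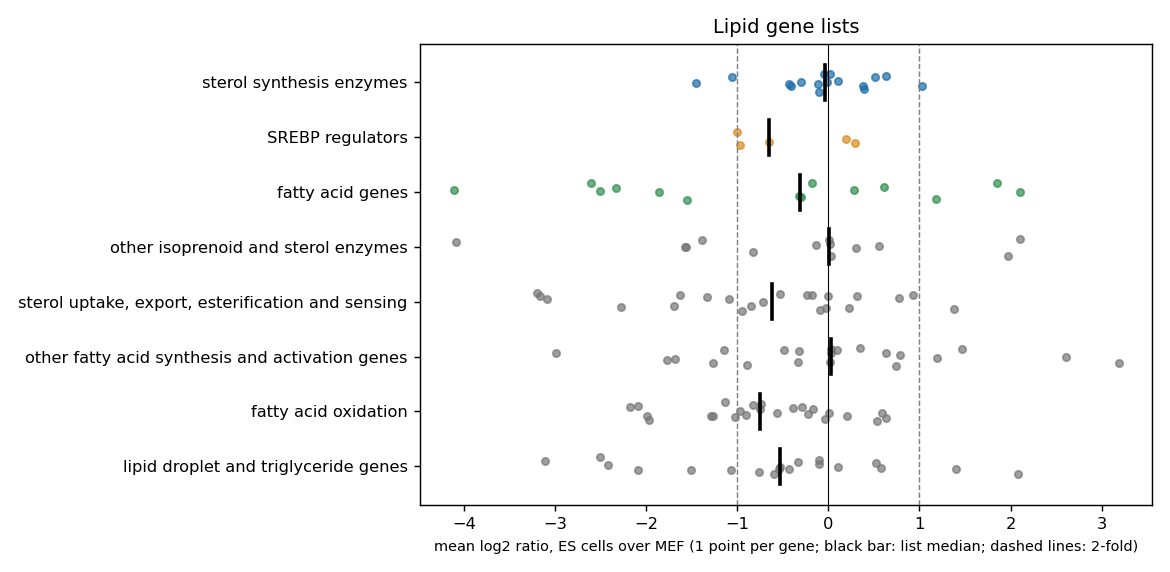
Mean log2 ratio of ES cells over MEF (horizontal axis) of each tested gene in 8 lists of lipid genes (rows), with a black bar at the median of each list. Of the 16 sterol synthesis enzymes, 13 lie between the dashed 2-fold lines about a median of -0.032, and the 14 fatty acid genes have 9 beyond them.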

How the data were processed

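RNA of 3 ES cell replicates and of MEF was measured on 3 two-colour Agilent arrays of 43379 gene spots each. Agilent Feature Extraction 9.5.3.1 had quantified the scans, per the file headers, and all arrays lay on 1 slide and 1 scan, so neither could be tested as a batch. The deposited mean spot intensities are uncorrected; a further deposited column holds intensities after background subtraction and dye normalization, per the file headers. A deposited column of log10 ratios gives MEF over ES cells. The authors' deposited log2 value table matched that ratio with its sign turned (tolerance 0.01) for 85.4% to 87.8% of probes and had medians of 0.213, 0.0859 and -0.143; what was done to the rest stays unknown.

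Intensities were corrected with normexp (offset 50) and normalized by loess within each array in limma 3.58.1 under R 4.3.3, without control spots (weight 0) and 117 to 144 outlier spots per array. The median signal of gene spots was 398 to 421 for ES cells and 381 to 391 for MEF, and the number of arrays limits the precision. Probes had to be well above background on all 3 arrays in at least 1 channel (29500 of 41174 passed), and the brightest stood for its gene. RefSeq (GRCm38.p6) named 22951 probes by accession and 9768 by symbol or synonym; the others kept their deposited name. The mean log2 ratio was tested against 0 with limma (intercept only, Benjamini-Hochberg over 19494 genes). The procedure was tested on simulated data. The members and lists were chosen with earlier results of these data known. Named genes are all members and, of each other list, the highest and lowest called genes, markers included (at most 2 each way). The markers Col1a1, Col3a1 and Csf1r also fall under this rule but are not discussed above. Chosen after their values were seen were Dppa5a, Elovl4, Cidec, Retn, Rnf139, Dgat2, Fabp5, Rab3il1, Fen1, Scd3, Scd4, Pkd2l1 and the untested adipocyte markers. Hepatocyte and visceral endoderm markers had 2 of 6 tested and 1, Hnf4a, called higher. Hnf4a was not well above background in MEF. Some genes of these pathways are not reported here. Alternatives were other background corrections, signals, normalizations, filters, probe choices, fold minimums and gene names, and leaving out each array.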

Additional observations from a re-analysis of the deposited data

How the results depend on the processing

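The counts of fatty acid genes called, 3 higher and 6 lower, were the same under all alternatives but those that lower the fold minimum. Of the genes so called only Elovl7 and Fads3 had more than 1 tested probe, so averaging probes could not move the others. With no fold minimum 8951 genes were higher and 9655 lower, among them 13 and 19 of the 35 genes, 6 and 7 sterol enzymes, 2 and 3 regulators and 5 and 9 fatty acid genes. At 1.5-fold, 2 sterol enzymes were called higher and 3 regulators lower. With treat, 0 sterol enzymes were called higher and 0 regulators lower. Processed signals, the authors' value table and median centring each left 1 sterol enzyme and 0 regulators called lower, and normexp with offset 0 left 0 regulators lower. Leaving out an array gave 0 to 1 regulators called lower. The median of the regulators, -0.65, became -0.53 with processed signals and -0.38 with median centring. Median centring moved the median of all genes to 0.11 from -0.0505, and signs near 0 turned with it: Cyp51 0.16, Fdps 0.16, Mvk 0.22 and Sc4mol 0.20. Processed signals and the authors' value table gave 0.030 for Cyp51, 0.047 for Fdps, 0.068 for Mvk and 0.082 for Sc4mol, and offset 0 gave 0.018 for Sc4mol. Averaging all probes turned Fdft1 (-0.35, with a probe dim in ES cells), Fdps (0.74) and Hmgcs1 (0.25). The cause was not tested. Quantile scaling of average intensity leaves ratios as they are by construction. No paired analysis was possible because there is 1 group of arrays, tested against 0.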
